A study of Mus musculus with 12 samples.

Results

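Regions of open chromatin that were listed at the first stage of a reprogramming course, and at no other stage, numbered 6377 of the 115000 regions in the common set, or 5.55%. A region was taken when it overlapped, by at least 1 base, an interval of the list that the authors deposited for Stage1 and no interval of their lists for MEF, Stage2 or iPSC. Each of these Stage1-only regions was a single Stage1 interval with the same ends, and together they made up 17.4% of the 36719 intervals of the Stage1 list. The members were thus chosen by the authors' interval calls on the same 12 libraries whose reads are given below, so the reads of every stage took part in the choice.

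The series followed mouse cells of mixed C57BL/6 x 129 background through reprogramming that the labels call 3c enhanced, a term not explained in the sources used here, with 3 ATAC-seq libraries at each of 4 stages. MEF libraries came from unsorted embryonic fibroblasts. Stage1 cells were sorted for the Oct4-GFP reporter on day 6, Stage2 cells were sorted for it after 4 further days, and the iPSC libraries came from induced pluripotent stem cells sorted in the same way. Sorting was therefore shared by Stage1, Stage2 and iPSC and was not applied to MEF. The labels do not say that libraries of a stage came from separate cultures or animals, so every spread and p-value below measures the variation between these libraries, which may be technical.

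ATAC-seq uses a transposase that inserts sequencing adapters where DNA is not covered by nucleosomes, and the number of reads at a place follows how often it was accessible in the cell population. In reprogramming, fibroblast enhancers lose accessibility and enhancers of the pluripotent state gain it. Enhancers that lie far from genes change more between cell types than promoters do. A bulk library cannot tell fewer cells with an open region from less frequent opening in each cell.

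Member promoters are shown first, because they show which letters stood upstream of genes where a Stage1-only region covered the promoter. RefSeq's table of promoters on GRCm38.p6, the build equal to the mm10 of the files, held 120 promoters whose 250 upstream bases were covered for at least 150 bases by a member, 74 of them of protein-coding genes. The 6 protein-coding ones with the highest Stage1 level are printed here 5′ to 3′ in the direction of the gene. Capitals mark at most 1 match per promoter to the 25 searched motifs. They show a TEAD motif in Aebp2, a SOX motif in Map2k6, a TCF and LEF motif in Serpinb9b and an ETS motif in Lnx1. Lnx1 also matched the E-box MYC motif (CACGTG), which is left in lower case. Each match names letters in this window and is not evidence of a bound factor.
Aebp2, chr6:140622413-140622662, plus strand: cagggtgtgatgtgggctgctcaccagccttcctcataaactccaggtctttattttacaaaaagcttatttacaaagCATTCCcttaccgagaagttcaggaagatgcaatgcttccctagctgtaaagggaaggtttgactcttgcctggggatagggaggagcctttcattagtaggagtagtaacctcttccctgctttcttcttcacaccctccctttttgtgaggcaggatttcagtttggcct
Olig3, chr10:19356289-19356538, plus strand: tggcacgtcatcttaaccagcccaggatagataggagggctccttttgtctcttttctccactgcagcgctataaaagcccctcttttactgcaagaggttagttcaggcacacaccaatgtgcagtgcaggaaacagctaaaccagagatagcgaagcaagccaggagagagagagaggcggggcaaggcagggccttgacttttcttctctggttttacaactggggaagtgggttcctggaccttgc
Them5, chr3:94341849-94342098, plus strand: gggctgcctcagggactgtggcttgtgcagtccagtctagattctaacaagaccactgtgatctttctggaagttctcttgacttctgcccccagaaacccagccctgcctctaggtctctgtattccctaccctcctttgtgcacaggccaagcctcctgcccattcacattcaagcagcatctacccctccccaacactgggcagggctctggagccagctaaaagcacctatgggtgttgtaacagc
Map2k6, chr11:110479090-110479339, plus strand: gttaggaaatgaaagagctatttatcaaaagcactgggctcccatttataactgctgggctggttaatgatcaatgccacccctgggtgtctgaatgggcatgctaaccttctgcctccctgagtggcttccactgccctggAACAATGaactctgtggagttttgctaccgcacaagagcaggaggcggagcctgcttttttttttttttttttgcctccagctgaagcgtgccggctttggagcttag
Serpinb9b, chr13:33027164-33027413, plus strand: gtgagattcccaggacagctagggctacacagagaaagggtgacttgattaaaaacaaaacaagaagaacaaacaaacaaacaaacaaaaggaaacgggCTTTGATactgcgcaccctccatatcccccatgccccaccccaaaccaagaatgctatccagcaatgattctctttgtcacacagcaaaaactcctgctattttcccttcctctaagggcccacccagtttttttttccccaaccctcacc
Lnx1, chr5:74702904-74703153, minus strand: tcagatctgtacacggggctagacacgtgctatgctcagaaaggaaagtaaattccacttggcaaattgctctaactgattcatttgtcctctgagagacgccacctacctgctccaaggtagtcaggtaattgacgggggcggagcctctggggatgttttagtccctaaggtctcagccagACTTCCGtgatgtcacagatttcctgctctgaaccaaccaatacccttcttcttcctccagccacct

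These 6 promoters were picked by their Stage1 level, so their order is a description. Levels are given as CPM, the reads of a region relative to all reads in regions of that library after TMM scaling. At Olig3, a transcription factor of the neural tube, the region held 1, 0 and 1 reads in MEF, 26, 16 and 32 in Stage1, 16, 20 and 6 in Stage2 and 6, 9 and 4 in iPSC. At Aebp2, a cofactor of Polycomb repressive complex PRC2, it held 20, 10 and 8 reads in MEF, 50, 52 and 58 in Stage1, 28, 15 and 13 in Stage2 and 16, 8 and 8 in iPSC. Every Stage1 library stood above every other library at Aebp2 in reads, while at Olig3 the second Stage2 library passed the second Stage1 library in reads although not in CPM. Map2k6, a kinase that activates p38, had a mean of 3.96 CPM in MEF, 17.7 in Stage1, 7.85 in Stage2 and 3.33 in iPSC, and Lnx1, a ubiquitin ligase, had 1.44, 15.8, 10.4 and 3.78 CPM in the same order. Them5, a mitochondrial thioesterase, and Serpinb9b, of the serine protease inhibitor family, averaged 18.5 and 16.7 CPM in Stage1, and at most 4.54 and 9.19 CPM at any other stage.

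The 120 promoters were poorer in CpG than promoters under any region, as were those of similar classes. Their median ratio of observed to expected CpG was 0.321, against 0.736 over the 14067 promoters covered by any region of the common set and 0.373 over all 32851 promoters of the table. The ratio reached 0.6 in 15.8% of the member promoters, against 68.3% of promoters under any region and 33.95% of all. The 117 promoters under Stage2-only regions had a median ratio of 0.453, and the 139 under regions of Stage1 and Stage2 had 0.405. Median GC content was 52.8% in member promoters, against 60.8% under any region and 52.4% over the table. In GC content member promoters were thus close to the table as a whole. In CpG they were poorer than it, by the median ratio and by the share at 0.6.

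Motifs were searched on both strands of the 250 bases as fixed letters. ZEB or SNAI (CAGGTG) was found in 25.8% of the 120 promoters, against 15.4% under any region and 17.2% of all. CEBP (TTGCNNAA) was found in 14.2%, against 6.96% and 9.56%, and SMAD (CAGACAG) in 10%, against 5.18% and 6.27%. The motif of GATA factors (AGATAAG) was found in 5%, which is 6 promoters, against 1.34% and 2.74%, and TCF and LEF (CTTTGAT) in 5.83%, which is 7, against 2.21% and 3.21%. ETS (CGGAAGT) was found in 2.5%, against 9.65% and 4.92%, and AP-1 (TGACTCA) in 2.5%, against 3.79% and 4.46%. KLF (GGGNGTGG), the motif of a reprogramming factor, was found in 24.2%, against 21.4% and 15.9%, and T-box (AGGTGTGA), which shares AGGTG with ZEB or SNAI, in 3.33%, against 0.640% and 1.1202%. Similar classes shared part of this: in promoters under Stage2-only regions ZEB or SNAI was found in 24.8%, CEBP in 8.55%, SMAD in 5.13%, TCF and LEF in 1.71%, and GATA and T-box in none. In promoters under regions of Stage1 and Stage2 these were 38.8%, 7.91%, 7.19% and 4.32%, with GATA in 2.16% and T-box in 1.44%. The shares in member promoters rest on between 3 and 31 promoters each and are given as counts of letters with no test. The other 16 motifs were CRE (TGACGTCA), TEAD (GGAATG), octamer (ATGCAAAT), OCT-SOX, whose end is most of the octamer, SOX (AACAATG), ESRRB or NR5A (TCAAGGTCA), CTCF, RUNX (TGTGGTT), FOX (TGTTTAC), GRHL (AACCNGTT), TFAP2 (GCCNNNGGC), E-box MYC (CACGTG), NFY (CCAATCA), OTX (GGATTA), STAT (TTCCNGGAA) and NFI. TEAD stood in 13.3% of member promoters, against 10.7% under any region and 12.6% of all, and OCT-SOX, STAT and NFI stood in none of the 120.

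MicroRNA hairpins within 1 kb were found for 7 members, or 0.110%, against 0.230% of all regions. Mature sequences of the 3 best known are printed from RefSeq with the seed, bases 2 to 8 from the 5′ end, in capitals, because the seed decides which messages a microRNA pairs with.
mmu-miR-200c-3p, chr6:124718324-124718346, minus strand: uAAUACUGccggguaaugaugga
mmu-miR-200c-5p, chr6:124718365-124718386, minus strand: cGUCUUACccagcaguguuugg
mmu-let-7g-5p, chr9:106178846-106178867, plus strand: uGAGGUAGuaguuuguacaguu
mmu-let-7g-3p, chr9:106178902-106178923, plus strand: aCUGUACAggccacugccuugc
mmu-miR-130a-3p, chr2:84741116-84741137, minus strand: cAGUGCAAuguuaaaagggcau
mmu-miR-130a-5p, chr2:84741155-84741176, minus strand: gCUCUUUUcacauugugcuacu

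No seed is shared among these 6 sequences. The member 861 bp from the Mir200c hairpin, whose product keeps epithelial cells epithelial by repressing Zeb factors, held 8, 5 and 2 reads in MEF, 14, 17 and 28 in Stage1, 21, 17 and 15 in Stage2 and 6, 15 and 10 in iPSC. Its mean level was 1.41 CPM in MEF, 16.9 in Stage1, 12.03 in Stage2 and 9.09 in iPSC, and every sorted stage had a higher mean than MEF. The member 740 bp from Mirlet7g, of the let-7 family of differentiated cells, had 1.61, 8.98, 5.90 and 7.58 CPM at the 4 stages. The member 15 bp from Mir130a had 2.97 CPM in MEF and between 11.2 and 13.4 at the sorted stages. Its Stage2 mean (13.4 ± 1.51, SD) and Stage1 mean (12.8 ± 1.76) were within their spread. Their order was not computed with library totals. The member 425 bp from Mir672, on the X chromosome, had 0.843 CPM in MEF and 17.5 in Stage1, with 6.30 in Stage2 and 6.22 in iPSC. The other 3 hairpins were Mir3473c, Mir6943 and Mir6369, with Stage1 means from 7.09 to 11.2 CPM.

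Depth limited every value per region. Libraries held 14310290 to 32229388 reads in total, of which MEF libraries had 16.7% ± 5.37 in regions, Stage1 libraries 7.64% ± 0.415, Stage2 libraries 6.03% ± 0.813 and iPSC libraries 4.94% ± 0.395 (SD, n = 3 each). Among the MEF libraries the share was 22.1% in the first, 16.7% in the second and 11.3% in the third, and the median member had 0.948, 1.11 and 1.91 CPM in them. The first differed more from the other MEF libraries in counts per region (chi-square per degree of freedom 2.13 against each) than these did from each other (1.17). Marker regions followed the labels by their means between MEF and the sorted stages, here without TMM scaling. Near Zfp42, a pluripotency marker, they summed to 2.79 CPM in MEF, 39.6 in Stage1, 72.6 in Stage2 and 68.1 in iPSC. Near the fibroblast factor Twist2 they summed to 101, 14.9, 19.3 and 20.2 CPM. Among the sorted stages not every marker followed the course. The pluripotency gene Nanog had 167, 143 and 115 CPM in Stage1, Stage2 and iPSC, and the fibroblast marker Thy1 14.8, 20.7 and 28.6 CPM. An average member held 5.28 reads in a MEF library, 12.4 in a Stage1 library, 9.05 in a Stage2 library and 6.80 in an iPSC library. The density of reads outside regions would by itself have given 3.81, 2.42, 3.90 and 3.70 reads over the same width.

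Stage1-only regions were most accessible in Stage1 and were partly accessible in Stage2 and iPSC. Relative to the read density outside regions, they stood at 1.39-fold ± 0.287 in MEF, 5.09-fold ± 0.472 in Stage1, 2.33-fold ± 0.435 in Stage2 and 1.84-fold ± 0.181 in iPSC (SD, n = 3 each). The library ranges were 1.117 to 1.69 in MEF, 4.58 to 5.52 in Stage1, 1.96 to 2.81 in Stage2 and 1.64 to 1.99 in iPSC. Stage1 did not overlap any other stage, while MEF and iPSC overlapped slightly at their edges, as did Stage2 and iPSC. Members took 0.727% ± 0.146 of the region reads in MEF, 6.24% ± 0.342 in Stage1, 3.67% ± 0.153 in Stage2 and 3.58% ± 0.0631 in iPSC. All 4 values describe libraries that the lists were made from.

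**Figure D1:**
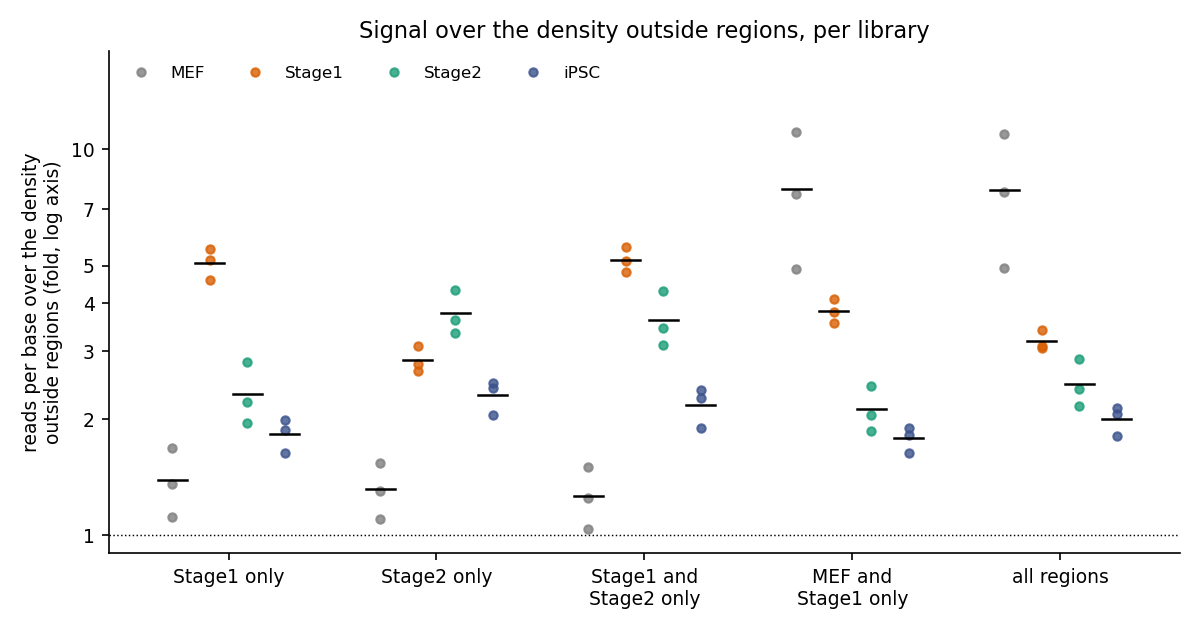
Reads per base in regions over the read density outside regions (fold, vertical log axis) for Stage1-only regions, 3 comparison classes and all regions (horizontal axis), with stages in colour; points are libraries, bars their means and the dotted line marks 1. Stage1-only regions averaged 1.39-fold in MEF, 5.09 in Stage1, 2.33 in Stage2 and 1.84 in iPSC.

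Region by region, the median member stood at 1.03-fold of the outside density in MEF, 4.88-fold in Stage1, 2.27-fold in Stage2 and 1.82-fold in iPSC, over the summed libraries of each stage. At least 2-fold was reached by 23.4% of members in MEF, 99.8% in Stage1, 62.5% in Stage2 and 40.8% in iPSC. At or below the outside density were 48.3% in MEF, 1 member in Stage1, 3.10% in Stage2 and 10.8% in iPSC. Most members, although absent from the Stage2 list, stood at 2-fold or more in Stage2.

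**Figure D2:**
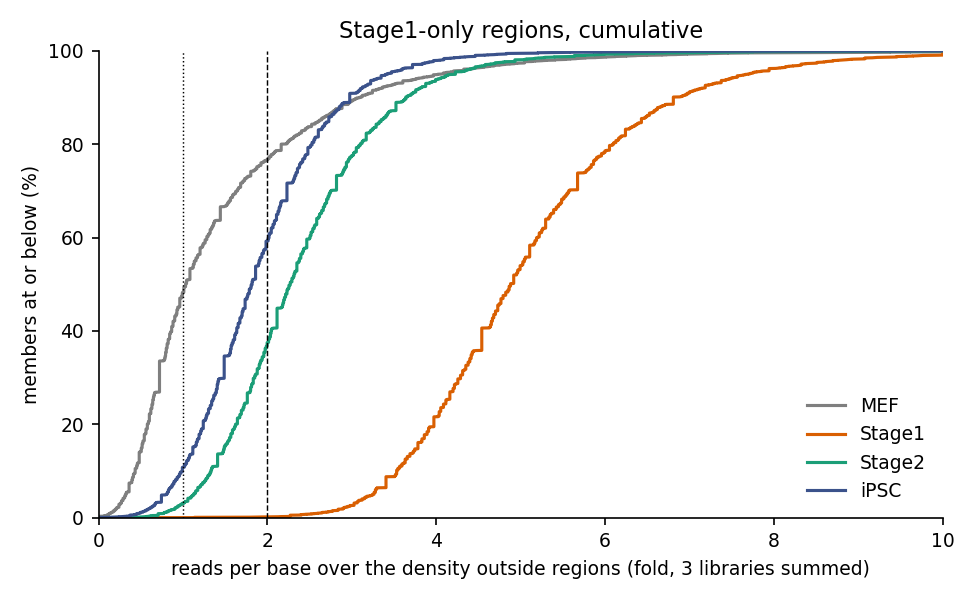
Share of the 6377 Stage1-only regions (vertical axis, percent) at or below each fold over the outside density (horizontal axis, values above 10 drawn at 10), with 1 line per stage; the dotted line marks 1 and the dashed line 2. The lines for Stage2 and iPSC lie between MEF and Stage1, with medians of 2.27 and 1.82.

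Classes listed elsewhere had their own order. Stage2-only regions, 5451 in number, had per-region medians of 0.927-fold in MEF, 2.84 in Stage1, 3.64 in Stage2 and 2.31 in iPSC, so they were above the outside density in Stage1 and iPSC, which did not list them, but not in MEF. Regions listed in both Stage1 and Stage2 but in neither MEF nor iPSC, 3814 in number, had 0.937, 4.79, 3.42 and 2.16. Members thus resembled the regions of both stages in Stage1, at 4.88-fold against 4.79-fold, and stood lower in Stage2, at 2.27-fold against 3.42-fold. MEF-only regions were at or under the outside density after MEF, with 0.883 in Stage1, 0.805 in Stage2 and 0.826 in iPSC. These medians were fixed in part by the lists and are given without a test.

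By mean CPM, 5583 members, or 87.5%, were highest in Stage1, 388 in Stage2, 399 in iPSC and 7 in MEF. In 2252 members, or 35.3%, the lowest Stage1 library lay above all of the other 9 libraries, against 4.29% of all 115000 regions. When library totals set the scale, 6119 members, or 96.0%, were highest in Stage1 and 3436, or 53.9%, had no overlap, against 6.15% of all. Outside Stage1, the highest mean was in Stage2 for 3479 members, or 54.6%, in iPSC for 2851, or 44.7%, and in MEF for 47. At the edge of the rule, 66 members lay within 50 bp of an interval of another stage, and their median levels were 1.42 CPM in MEF, 7.66 in Stage1, 4.97 in Stage2 and 4.68 in iPSC. The 19 Stage1-list regions left out for an overlap of just 50 bp had 2.13, 10.9, 6.54 and 7.22 CPM.

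Calls between stages came from edgeR's quasi-likelihood test with Benjamini-Hochberg adjustment over all 71069 tested regions, at an adjusted p under 0.05. Of the members, 4426 had enough reads to be tested and 1951 did not, and 2413 of those tested passed the filter through Stage1, with fewer than 3 other libraries past its limit of 6.84 CPM. The contrasts of Stage1 with the other stages chose the members and are given as a description: Stage1 was called higher than MEF in 4357 of the tested members (98.4%; 40% of all tested regions), than Stage2 in 1248 (28.2%; 5.62% of all) and than iPSC in 1488 (33.6%; 9.6% of all), and lower than iPSC in 1 (6.74% of all). With library totals in place of TMM the higher calls were 3911 (29.4% of all), 1810 (6.31% of all) and 2931 (22.2% of all), in the same order of MEF, Stage2 and iPSC. In 945 members, or 21.4%, Stage1 was called above all of the other stages, against 2.88% of all tested regions. In 2567, or 58.0%, it was called above MEF alone, against 27.9%, and in 68, or 1.54%, no contrast was called, against 15.5%. Without the third Stage1 library, for which the filter tests more members, 730 were called above Stage2.

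After Stage1 most tested members stayed above their fibroblast level. Stage2 was called higher than MEF in 3987 of 4426 tested members, or 90.1%, against a background of 40.1% of all tested regions, and lower in 2, against 42.6%. The median log2 fold of Stage2 over MEF was 2.28 in these members and -0.06 over all tested regions. In 3680 of the 3987 every Stage2 library lay above every MEF library, which is 83.1% of tested members, against 38.5% of all tested regions that were both called and without overlap. Absence from the MEF list held the MEF level down, and the filter favoured regions with reads, so these counts describe the members and are no independent test. Without the filter, 5979 of 6376 members, or 93.8%, were called higher, against 34.2% of all regions, and for iPSC over MEF 5764, or 90.4%, against 32.5%. Without the third MEF library, for which the filter tests more members, 4546 were called higher in Stage2 and 4443 in iPSC, and without the first 4407 and 4172.

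iPSC was likewise called higher than MEF in 3858 tested members, or 87.2%, against 39.1% of all tested regions, and lower in 2, against 43%. The median log2 fold was 2.18 in members and -0.11 over all. Groups did not overlap in 3494 of the rises, or 78.9% of tested members, against 37.2% of all tested regions. The scaling mattered for the size of these counts: with library totals in place of TMM, Stage2 was higher than MEF in 2593 members (58.6%; 27.4% of all) and lower in 64 (55% of all), and iPSC higher in 1864 (42.1%; 23.7% of all) and lower in 128 (57.8% of all). A fit of iPSC and MEF alone, whose filter also used only these 2 groups, called 2083 higher. Under that scaling the median log2 fold of all tested regions itself moved to -1.08 for Stage2 over MEF and to -1.38 for iPSC over MEF, and the share of reads in regions, highest in MEF, moves with it.

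Between iPSC and Stage2 few members were called. iPSC was higher in 4, or 0.0904%, against 0.498% of all tested regions, and lower in 22, or 0.497%, against 1.36%, with a median log2 fold of -0.07. At an unadjusted edgeR p under 0.05, 128 of 4426 tested members were higher and 286 lower, against 4540 and 6320 of all 71069 tested regions. DESeq2 called no member in either direction. With library totals 0 were higher, against 0.038% of all, and 37 lower, against 0.857%. Of Stage2-only regions, 132 or 3.57% were called lower in iPSC than in Stage2, and of regions listed in Stage1 and Stage2, 225 or 6.03%. Taking the steps in turn, 1069 tested members, or 24.2%, were called both lower in Stage2 than in Stage1 and higher in Stage2 than in MEF, against 3.03% of all tested regions. A further 2918, or 65.9%, were called above MEF in Stage2 and not lower than Stage1, against 37.1%. Another 179, or 4.04%, were lower in Stage2 than in Stage1 and not called above MEF, against 2.59%, and 260, or 5.87%, had neither call, against 57.3%.

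**Figure D3:**
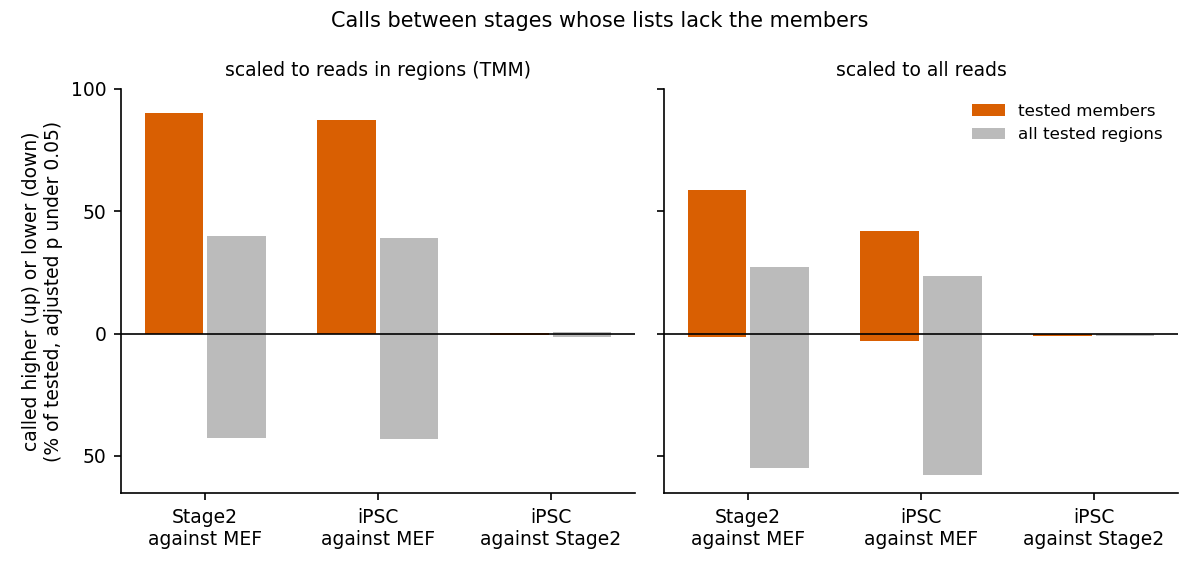
Percent of tested regions called higher (upward bars) or lower (downward bars) at an edgeR adjusted p under 0.05 (vertical axis), for tested members and all tested regions, in each contrast (horizontal axis); the left panel uses TMM scaling and the right panel all reads of a library. Members called higher in Stage2 than MEF made up 90.1% on the left and 58.6% on the right, and the bars for iPSC against Stage2 are too short to see clearly.

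Members with the highest Stage1 level are described next, and their order of stages follows in part from that choice. The highest Stage1 level was at chr3:106252101-106252950, outside genes and 32.6 kb from Chil4, a chitinase-like gene. It held 8, 11 and 11 reads in MEF, 88, 89 and 117 in Stage1, 17, 15 and 12 in Stage2 and 14, 10 and 7 in iPSC. Its mean level was 3.39 CPM ± 1.70 in MEF, 85.7 ± 5.47 in Stage1, 9.99 ± 0.866 in Stage2 and 8.79 ± 2.02 in iPSC (SD, n = 3 each). Stage1 stood clear of all other libraries, and Stage2 was called above MEF by a log2 fold of 1.69 ± 0.35 (SE, edgeR adjusted p = 7.46e-06). With library totals that fold was 0.69 and no longer called (edgeR adjusted p = 0.132).

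Inside Epha3, an ephrin receptor, the member chr16:63668951-63669900 held 4, 5 and 7 reads in MEF, 60, 70 and 96 in Stage1, 28, 26 and 12 in Stage2 and 14, 12 and 3 in iPSC. Its means were 1.89, 65.5, 14.8 and 8.01 CPM. Next to it in level was chr14:40454901-40456150, 1250 bp wide and 355 kb from Sh2d4b, with 4, 4 and 7 reads in MEF, 67, 60 and 88 in Stage1, 42, 15 and 15 in Stage2 and 12, 5 and 11 in iPSC. In both, the lowest Stage1 library lay above the highest Stage2 library, and iPSC was the lower of the later stages by its mean. The member 4966 bp from Clec2e, a C-type lectin gene, had means of 1.28, 59.7, 19.8 and 10.3 CPM. The member 7198 bp from the odorant receptor Olfr663 had 1.33, 53.3, 9.86 and 9.58 CPM, and the one inside Adamts7, a secreted metalloprotease, had 1.85, 53.3, 9.61 and 5.50 CPM.

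The next members were chosen as those farthest above all other stages, so their low levels elsewhere restate the choice. At chr6:123646251-123646850, inside the vomeronasal receptor gene Vmn2r22, reads were 0, 5 and 2 in MEF, 36, 35 and 53 in Stage1, 9, 10 and 5 in Stage2 and 0, 0 and 4 in iPSC. At chr1:81643501-81644100, 276 kb from Nyap2, they were 1, 5 and 2 in MEF, 26, 35 and 35 in Stage1, 4, 5 and 5 in Stage2 and 7, 4 and 4 in iPSC. At chr4:114409401-114410050, inside Trabd2b, a Wnt-cleaving protease, they were 6, 5 and 10, then 26, 28 and 42, then 11, 6 and 2, and then 4, 4 and 4, in the order MEF, Stage1, Stage2 and iPSC. Trabd2b was called neither in Stage2 against MEF (edgeR log2 fold 0.99 ± 0.49, SE, adjusted p = 0.0555) nor in iPSC against MEF (0.68 ± 0.56, adjusted p = 0.256). Olfr, Vmn, Clec, Skint, Zfp and Zscan4 genes have near-identical copies, and how reads that fit several copies were counted is not given in the sources used here, so values near them are uncertain.

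**Figure D4:**
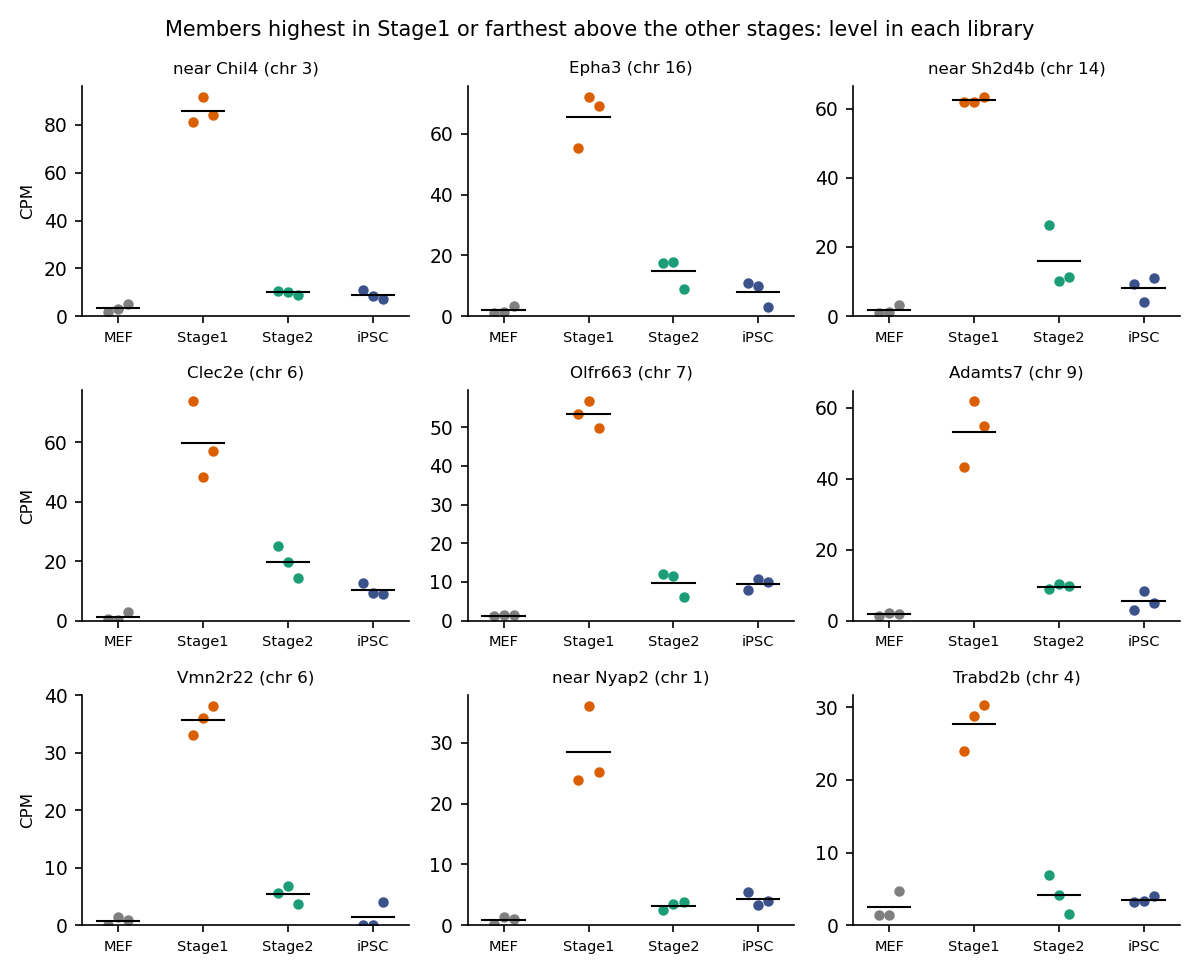
Level of 9 members in each library (CPM of reads in regions, TMM-scaled, vertical axis) by stage; points are libraries and lines the means. In the panel for the member 32.6 kb from Chil4, Stage1 libraries average 85.7 CPM and the other stages 3.39 (MEF), 9.99 (Stage2) and 8.79 (iPSC).

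The next 5 members were chosen among the largest called rises of Stage2 or iPSC over MEF, so their low MEF levels and large folds restate the choice. None had a read in any MEF library. The member chr10:99360551-99361000, 93.1 kb from Dusp6, a phosphatase that limits ERK signalling, held 8, 10 and 19 reads in Stage1, 15, 13 and 8 in Stage2 and 8, 6 and 6 in iPSC. Against a floor of 3 reads over the MEF libraries together, Stage2 was at least 27.2-fold higher and iPSC at least 19.097-fold higher. The bounds in this paragraph hold under TMM scaling and were not computed with library totals. The member 55.3 kb from Sult1c1, a sulfotransferase gene, held 11, 11 and 9 reads in Stage2, at least 23.4-fold above MEF, and 2, 1 and 3 in iPSC. The member near Zfp985 held 12, 14 and 5 reads in Stage2 and 4, 2 and 2 in iPSC. The member 17.1 kb from Ogt, the enzyme that adds O-GlcNAc to proteins, held 8, 4 and 9 reads in iPSC, at least 20.1-fold above MEF, and the one near Skint9 held 6, 5 and 4, at least 14.3-fold above MEF. Calls at these 5 members kept an edgeR adjusted p under 0.05 in every fit without 1 library that tested them, which also follows in part from the choice.

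Falls from MEF were rare. Inside Ano6, a lipid scramblase, chr15:95885151-95885650 held 1, 4 and 3 reads in Stage2, against 33, 21 and 9 in MEF, a log2 fold of -1.74 ± 0.50 (SE, edgeR adjusted p = 0.00091). Its mean was 15.6 CPM in Stage1, above the 5.97 CPM of MEF, and without the first Stage2 library the call was lost (edgeR adjusted p = 0.0542).

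The members called between iPSC and Stage2 had few reads. Inside St8sia1, the GD3 ganglioside synthase, iPSC held 8, 17 and 12 reads, against 5, 5 and 2 in Stage2 (log2 fold 1.94 ± 0.48, SE, edgeR adjusted p = 0.0167). In the member 29.8 kb from Prrx1, a mesenchymal factor, iPSC held 12, 12 and 8 reads, against 2, 4 and 6 in Stage2 (1.72 ± 0.49, edgeR adjusted p = 0.0411), and inside the splicing helicase gene Aqr 20, 7 and 12, against 7, 4 and 4 (1.70 ± 0.45, adjusted p = 0.0276). With library totals these 3 were not called (edgeR adjusted p = 0.0535, 0.122 and 0.0935). In the member 25.2 kb from the corepressor gene Tle4 iPSC held 1, 2 and 1 reads, against 6, 11 and 12 in Stage2 (-2.45 ± 0.67, edgeR adjusted p = 0.0326), and in a member with no protein-coding gene end within 799 kb 2, 2 and 1, against 13, 9 and 9 (-2.24 ± 0.60, adjusted p = 0.0285). In the member 123 kb from Slc7a12, the nearest gene end, iPSC held 0, 1 and 1 reads, against 12, 4 and 6 in Stage2 (edgeR adjusted p = 0.0373). Each of these 6 calls was lost for at least 5 of the 12 libraries, when each was left out in turn.

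Gene lists were read against the members within 10 kb or inside a gene, which linked 4079 members, or 64.0%, to 3743 genes. Pluripotency genes, the network that keeps stem cells self-renewing, had 15 members at 11 of 34 genes. Their summed level was 23.6 CPM ± 1.90 in MEF, 155 ± 2.57 in Stage1, 116 ± 5.90 in Stage2 and 105 ± 9.04 in iPSC. Of 11 tested, 11 were called higher in Stage2 than MEF and 10 in iPSC than MEF, 7 and 5 with library totals. The list held 0.235% of members and 0.166% of all regions, but 0.344% of the regions of the Stage1 list and 0.440% of Stage2-only regions. The members of any of the 17 lists together numbered 125, with 98 tested. Stage2 was called above MEF in 89 and iPSC in 87, or 56 and 43 with library totals. These shares were close to those of the tested members as a whole. Over all tested regions, 40.1% and 39.1% were called so with TMM, and 27.4% and 23.7% with library totals. The calls of each list below stand beside these shares.

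Among pluripotency members, the one 393 bp from an end of Tdgf1, the Nodal co-receptor Cripto, held 1, 1 and 2 reads in MEF, 20, 18 and 30 in Stage1, 21, 17 and 19 in Stage2 and 13, 6 and 4 in iPSC. Its level rose in Stage2 over MEF by a log2 fold of 4.78 ± 0.49 (SE, edgeR adjusted p = 1.48e-15). The member in Dppa3, which protects DNA methylation in the zygote, had means of 2.57, 18.99, 10.1 and 12.4 CPM, and 2 members at Esrrb, an orphan receptor of the network, summed to 1.65, 18.5, 8.34 and 10.3 CPM. All 3 genes were lower after Stage1 by their means and above MEF at each later stage. With library totals the Tdgf1 member was still called above MEF in Stage2 and iPSC. The Dppa3 member (edgeR adjusted p = 0.0706 and 0.0525) and the Esrrb member that was tested were then called in neither. In the primed and epiblast list the member in Grhl2, which opens epithelial enhancers, had means of 0.751, 15.2, 9.51 and 4.56 CPM, and the one in Dnmt3a, a de novo DNA methyltransferase, had 3.93, 11.8, 5.96 and 5.68 CPM with no call in Stage2 or iPSC against MEF.

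Epithelial genes had 12 members at 9 of 30 genes, 0.188% of members against 0.127% of all regions. The share was higher in regions of the Stage1 list, at 0.226%, and in Stage2-only regions, at 0.257%. The summed level of the 12 members was 24.1 CPM ± 4.22 in MEF, 151 ± 10.7 in Stage1, 101 ± 9.85 in Stage2 and 76.0 ± 14.6 in iPSC. Of 11 tested, 10 were called higher in Stage2 than MEF and 9 in iPSC than MEF, 8 and 5 with library totals, where 1 and 2 were called lower, and 1 was lower in iPSC than in Stage2. Ovol2, a repressor of mesenchymal genes, had 4 members that summed to 2.23 CPM in MEF, 30.2 in Stage1, 22.0 in Stage2 and 18.5 in iPSC. The member near Grhl3 held 0, 7 and 0 reads in MEF, 24, 21 and 24 in Stage1, 19, 17 and 13 in Stage2 and 14, 6 and 6 in iPSC. The member inside St14, the membrane protease matriptase, averaged 1.19, 19.9, 6.09 and 6.10 CPM.

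Mesenchymal and fibroblast genes, which MEF express, had 10 members at 8 of 35 genes, 0.157% of members against 0.215% of all regions. The share was lower in regions of the Stage1 list, at 0.124%, and in Stage2-only regions, at 0.0734%. The summed level of the 10 members was 43.7 CPM ± 1.92 in MEF, 130 ± 11.7 in Stage1, 80.8 ± 7.71 in Stage2 and 80.0 ± 2.82 in iPSC. Of 9 tested, 6 were called higher in Stage2 than MEF and 7 in iPSC than MEF, but 2 and 1 with library totals, where 2 were called lower in each contrast. The member 890 bp from an end of Vim, the intermediate filament of mesenchyme, averaged 10.4, 29.4, 21.8 and 16.4 CPM, and the one in the cadherin gene Cdh11 averaged 5.91, 14.7, 8.27 and 14.0 CPM. With TMM both means were lowest in MEF, but the order turned with library totals: Vim then averaged 1.19, 2.04, 1.24 and 0.776 CPM of all reads, and Cdh11 0.695, 1.03, 0.460 and 0.657. Under library totals neither member was called in Stage2 or iPSC against MEF.

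Signalling genes carried members as well. The Wnt list, ligands, receptors and targets of the pathway that GSK3 restrains, had 16 members at 12 of 28 genes, with 21.5 CPM ± 6.91 in MEF, 204 ± 1.40 in Stage1, 107 ± 9.73 in Stage2 and 119 ± 16.1 in iPSC. All 13 tested were called higher in Stage2 and in iPSC than in MEF, 9 and 8 with library totals. Of all tested members 90.1% and 87.2% were called so with TMM. The Wnt list held 0.251% of members and 0.190% of all regions, with 0.212% of the regions of the Stage1 list and 0.275% of Stage2-only regions. Inside Gsk3b, the kinase itself, the member held 2, 3 and 1 reads in MEF, 50, 25 and 39 in Stage1, 18, 13 and 11 in Stage2 and 6, 12 and 2 in iPSC. Near Axin2, a feedback inhibitor and target, it held 7, 4 and 5 reads in MEF, 27, 25 and 50 in Stage1, 20, 13 and 19 in Stage2 and 21, 21 and 11 in iPSC. Stage1 stood above all other libraries in both members by reads. TGF-beta, BMP and Nodal genes had 11 members at 8 genes, 0.172% of members against 0.2096% of all regions. The share was 0.237% in regions of the Stage1 list and 0.0550% in Stage2-only regions. All 10 members tested were called higher in Stage2 and in iPSC than in MEF, 5 and 2 with library totals. Tgfbr3, the co-receptor betaglycan, had 3 members that summed to 4.36, 54.2, 24.8 and 20.2 CPM, and the member in the ligand gene Bmp7 averaged 2.55, 16.5, 6.98 and 6.05 CPM.

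AP-1 and other somatic factors had 11 members at 6 genes, 0.172% of members against 0.255% of all regions. The share was 0.253% in regions of the Stage1 list and 0.0550% in Stage2-only regions. Of 7 members tested, 7 were called higher in Stage2 and 6 in iPSC than in MEF, 6 and 5 with library totals. The genes were Nfib, Tead1, Runx1, Egr1, Nfia and Nfix, and none was a Fos or Jun gene. The 4 members at Nfib, a nuclear factor I gene, summed to 3.07 CPM in MEF, 55.9 in Stage1, 31.4 in Stage2 and 28.4 in iPSC. Fgfr2, a fibroblast growth factor receptor on the trophectoderm list, had 4 members with 4.65, 41.4, 11.997 and 25.5 CPM, and in this gene the iPSC mean was above the Stage2 mean. Tet2, a dioxygenase that starts DNA demethylation, had a member with 0, 2 and 3 reads in MEF, 16, 26 and 26 in Stage1, 29, 36 and 11 in Stage2 and 21, 14 and 10 in iPSC. In reads, 2 Stage2 libraries were the highest of all there, but the libraries differ in depth. With library totals the mean was highest in Stage1, at 1.39 CPM of all reads, against 0.971 in Stage2 and 0.606 in iPSC.

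Genes of other lineages carried members too. Nkx2-2, a ventral neural tube factor, had one with 9, 10 and 7 reads in MEF, 41, 37 and 47 in Stage1, 42, 34 and 24 in Stage2 and 26, 16 and 31 in iPSC. Means were 2.75, 36.6, 22.6 and 21.6 CPM. Tfap2a, a factor of trophectoderm and neural crest, averaged 0.883, 13.8, 10.6 and 9.95 CPM, and the member 393 bp from an end of Ednrb, the endothelin receptor of neural crest, averaged 0.489, 17.7, 9.07 and 5.98 CPM. Markers of cell types the sort could still hold had 5 members for blood, 3 for endothelium, 2 for skeletal muscle and 7 for neural crest. Their shares of members were 0.0784%, 0.0470%, 0.0314% and 0.110%, against 0.0470%, 0.0948%, 0.0209% and 0.0574% of all regions. Only the endothelial share was below that of all regions. The summed levels of the blood members were 14.9 CPM in MEF, 57.3 in Stage1, 36.3 in Stage2 and 34.3 in iPSC, and those of the endothelial members 6.39, 49.5, 26.8 and 28.1. At Myh3, an embryonic myosin gene, the 2 members reached 8.15, 16.0, 16.9 and 11.5 CPM. Stage1 (SD 4.59) and Stage2 (SD 2.80) were within their spread. With library totals 1 member averaged 0.731, 0.735, 0.592 and 0.245 CPM of all reads. The other averaged 0.218, 0.362, 0.360 and 0.290, so both means were then highest in Stage1. The germline list had 4 members and the mesoderm and cardiac list 4, with summed levels of 6.03 and 5.67 CPM in MEF, 30.4 and 31.5 in Stage1, 17.2 and 16.5 in Stage2 and 25.1 and 12.8 in iPSC. The primitive endoderm list had 6 members, with 7.53 CPM in MEF, 70.6 in Stage1, 29.8 in Stage2 and 40.1 in iPSC, and the trophectoderm list 7, with 6.88, 68.3, 30.7 and 40.7 CPM. The list of signalling and chromatin genes in reprogramming had 8 members, with 13.1, 82.2, 66.2 and 53.8 CPM. Accessibility near a gene was measured and not its expression, and the part of other cell types in these levels was not tested.

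Counts over the named members depend on scaling in the same way. Of the 58 that were tested, 52 were called higher in Stage2 than MEF and 49 in iPSC than MEF, against 37 and 32 with library totals, and all of these 37 and 32 were among the 52 and 49. For 2 members in Stage2 against MEF and 6 in iPSC against MEF, the fold was above 0 and called with TMM and below 0 with library totals.

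Genes with the most members were long. Macrod2 and Slc39a11 each had 10, Zfhx3 had 9 and Auts2 had 8, while 2949 genes had 1. Macrod2, spanning 1998 kb and holding 82 regions in all, summed over its members to 11.6 CPM ± 2.00 in MEF, 110 ± 14.0 in Stage1, 52.5 ± 11.7 in Stage2 and 53.2 ± 3.99 in iPSC. Slc39a11, a zinc transporter that spans 405 kb, held 10 members among 42 regions, with 16.7, 119, 46.3 and 47.3 CPM. Zfhx3, a homeobox factor, reached 14.3, 83.7, 40.4 and 47.5 CPM, and Auts2, a neuronal regulator, 14.2, 102, 42.5 and 58.2 CPM. In all 4 genes the sum over members was higher in every Stage1 library than in any other, which follows in part from how members were chosen. Gene families were picked after their values were seen and have no test. Odorant receptor genes were linked to 31 members, 0.486% against 0.206% of all regions, with 46.7, 415, 206 and 186 CPM, and C-type lectin genes to 11, 0.172% against 0.0504%, with 16.0, 231, 98.0 and 77.7 CPM. Vmn genes (0.125% against 0.0661%), Skint genes (0.0314% against 0.00435%), Serpin genes (0.204% against 0.116%) and Krt genes (0.125% against 0.06%) also stood above their share of all regions. Zfp and Hox genes stood below it: Zfp genes were linked to 69 members, 1.08% against 1.16%, and Hox genes to 2, 0.0314% against 0.06696%.

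Stage1-only regions were seldom at gene ends. Within 1 kb of an end of a protein-coding gene were 386 members, or 6.05%, against 14.2% of all regions and 64.2% of regions listed at all 4 stages. The share was 8.66% for Stage2-only regions, 7.79% for regions of Stage1 and Stage2, 19.2% for regions of MEF and Stage1, and 4.80% for MEF-only regions. Beyond that the members were not farther out: 28.5% lay at 1 to 10 kb, against 22.0% of all regions, and 15.9% beyond 100 kb, against 19.4%. The median distance was 19.3 kb (quartiles 5.93 and 60.0 kb), against 21.2 kb over all regions, and 48.1% lay inside a gene. Of the Stage1 list, members made up 3.38% within 1 kb of an end, 21.2% from 1 to 10 kb, 25.2% from 10 to 100 kb and 26.7% beyond. The table used here gives no strand, so a start and an end of a gene are not told apart.

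**Figure D5:**
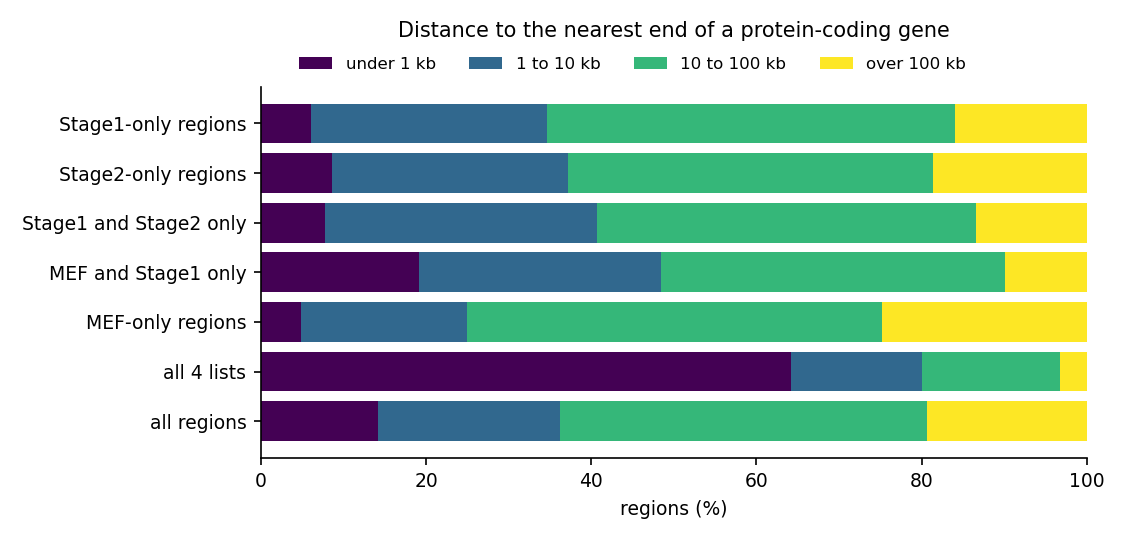
Stacked bars of the percent of regions (horizontal axis) at each distance to the nearest end of a protein-coding gene (colours, bins in kb) for Stage1-only regions, other classes and all regions (rows). Members lie within 1 kb in 6.05% of cases, against 14.2% of all regions.

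Members near gene ends held more reads in MEF than distant ones did, by their means. Those within 1 kb stood at 2.13-fold ± 0.636 of the outside density in MEF, 5.49 in Stage1, 2.83 in Stage2 and 2.19 in iPSC (SD, n = 3), and those over 100 kb away at 1.1999-fold ± 0.274, 4.97, 2.14 and 1.67. Narrow members stood above wide ones in MEF too. The fold divides whole reads by the width of a region, and the effect of width on it was not tested. The 1698 members of 300 bp or less stood at 1.91, 5.37, 2.89 and 2.29-fold, and the 1087 over 500 bp at 1.01, 5.90, 2.09 and 1.58. Members were narrow, with a median of 400 bp (quartiles 300 and 500, range 50 to 1250) against 550 bp for all regions. Stage2-only and iPSC-only regions were narrower still, each with a median of 350 bp, and regions of Stage1 and Stage2 had 550 bp.

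In their surroundings, members were single more often than clustered. Another member lay within 10 kb of 894, or 14.0%, and the median gap to the next member was 71.5 kb, against 98.7 kb for Stage2-only regions. The nearest interval of another stage was a MEF interval in 65.8%, at a median of 5050 bp over all members, and 554 members, or 8.69%, had one within 500 bp. Within 25 kb, 68.1% of members had a MEF-only region, 57.5% a region that the iPSC list holds, 35.5% a region of all 4 lists and 26.0% another member, while 10.3% had no other region. For Stage2-only regions the first 3 shares were 65.2%, 59.3% and 36.6%.

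Regions within 25 kb of a member, 18462 in number with 12649 tested, were near the background in their changes. They were called higher in Stage1 than MEF in 41.1% and lower in 37.0%, against 40% and 40.4% of all tested regions. Stage2 was called higher than Stage1 in 3.98% and lower in 6.07%, against 5.14% and 5.62%, and iPSC higher than Stage2 in 0.427% and lower in 1.51%, against 0.498% and 1.36%. Within the class listed in Stage1, Stage2 and iPSC but not MEF, the 1444 tested neighbours were called lower in Stage2 than in Stage1 in 10.1%, against 6.54% of that whole class, and higher in 4.57%, against 8.68%. Within the class of all 4 lists, lower calls stood at 11.4% of 2608 tested neighbours, against 8.89% of the class. Neighbours lie in the same surroundings as members and are part of the classes they are set against, and these differences carry no test.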

How the data were processed

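ATAC-seq of 12 libraries, 3 at each of 4 stages, was analysed from deposited region lists and read counts. Counts are whole reads per region of a common set, deposited by the authors without normalization, and the last 5 lines of each file are tallies that name no region and stayed out of the tests. The submitters' processing notes name the aligner Bowtie2 2.2.6, the counter HTSeq 0.5.4p3, SAMtools 0.1.19, Picard 2.6.0 and DESeq2 1.12.4, and the build mm10, without saying how each was used. The peak caller and the treatment of duplicates, of reads with several matches and of the transposase offset are not given in the sources used here. Each list interval carries a 3, which was read as found in all 3 libraries of its stage.

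The members and all gene lists were chosen with earlier results of these data known. Regions were tested with edgeR 4.0.16 in R 4.3.3 (TMM on reads in regions, filterByExpr with a minimum count of 10 and a total of 15, robust quasi-likelihood F test, 1 model of the 4 stages), with Benjamini-Hochberg adjustment over all 71069 tested regions and a call at an adjusted p under 0.05. The fit was tested on simulated counts. Libraries held 14310290 to 32229388 reads, of which 1034936 to 6261903 lay in regions, and an average member held under 13 reads a library, so single regions are imprecise. Read density outside regions was taken over the genome span not covered by regions. Named members were the highest in Stage1, those farthest above the other stages, the largest called changes in each contrast, the highest near gene ends, the highest for each gene list and the widest. Of these, 1 member is not reported here. Gene positions and promoters came from RefSeq on GRCm38.p6, and a gene was linked within 10 kb or inside it. Regions were compared by means, medians and counts with Python 3.11.15, numpy 2.4.6 and pandas 2.3.3, and drawn with matplotlib 3.10.9. Alternatives were whole-library totals, no filter and a stricter filter, DESeq2 1.42.0, equal reads in regions, 2 groups alone, a replicate block, other distances and leaving out each library. Replicate numbers were not taken as pairs, since the labels name nothing that same-numbered libraries share.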

Additional observations from a re-analysis of the deposited data

How the results depend on the processing

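Counts of members called higher against MEF kept their direction under every alternative run, and their size followed depth, scaling and the number of members tested. Counts are given as Stage2 over MEF higher and lower, iPSC over MEF higher and lower, and iPSC over Stage2 higher and lower. The number tested differs between settings, and shares over all tested regions are not set beside these counts. They show only how the counts of members moved. With library totals the counts were 2593, 64, 1864, 128, 0 and 37. With a minimum count of 20, under which only 501 members were tested, they were 487, 0, 470, 0, 1 and 3. With libraries thinned to 1034936 reads in regions they were 1631, 0, 1593, 0, 0 and 0. Without a filter, 1 was lower in Stage2 than MEF, 0 lower in iPSC than MEF and 2 higher in iPSC than Stage2. With DESeq2, 1 was lower in Stage2 than MEF, 1 lower in iPSC than MEF, and 0 and 0 were called between iPSC and Stage2. With only the 2 groups compared, 0 were lower in Stage2 than MEF, 2083 higher and 0 lower in iPSC than MEF, and 15 higher in iPSC than Stage2.

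Members called higher in Stage1 than MEF numbered 499 of the 501 tested with the minimum count of 20, and 2246 after thinning. Those higher than Stage2 numbered 334 and 261 under these settings and 522 with DESeq2, and those higher than iPSC 346, 383 and 813, with 2931 under library totals. Restricted to members with no interval of another stage within 500 bp, 1 was lower in iPSC than MEF, and members took 5.70% of region reads in Stage1, 3.32% in Stage2 and 3.26% in iPSC. A gene link of 50 kb gave 82.0% of members a gene. In the replicate block, whose numbers did not pair libraries (correlations of same-numbered deviations from -0.0645 to 0.0656 over 18 pairs), 1 member was lower in iPSC than MEF, 2 were higher in iPSC than Stage2, and 3967 stayed the count higher in Stage2 than MEF.

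Neighbours are given as Stage1 over MEF higher and lower, Stage2 over Stage1 higher and lower, and iPSC over Stage2 higher and lower. Within 10 kb they were 2560, 1979, 203, 401, 26 and 83, and within 100 kb 12442, 13080, 1439, 1647, 179 and 468, as fewer or more regions were counted. Of those within 25 kb, the minimum count of 20 gave 2918 and 2145 for Stage1 over MEF. DESeq2 gave 218 and 296 for Stage2 over Stage1 and 8 and 56 for iPSC over Stage2. Thinning gave 2086 lower in Stage1 than MEF, 96 and 116 for Stage2 over Stage1, and 0 and 1 for iPSC over Stage2. Library totals gave 115 higher in Stage2 than Stage1, and 6 and 101 for iPSC over Stage2. Without a filter 35 were higher in iPSC than Stage2, and with only the 2 groups 225 were higher and 302 lower.

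Leaving out 1 library in turn, for which the filter needs fewer libraries and tests more members, gave 4458 to 5597 members higher in Stage1 than MEF, 730 to 1621 than Stage2 and 1021 to 1847 than iPSC. It gave 4194 to 5087 higher and 0 to 4 lower in Stage2 than MEF, 4101 to 4987 higher and 1 to 4 lower in iPSC than MEF, and 0 to 12 higher and 1 to 39 lower in iPSC than Stage2. Neighbours ranged over 5152 to 5821 higher and 4363 to 5258 lower in Stage1 than MEF, 236 to 627 and 409 to 912 in Stage2 than Stage1, and 13 to 101 and 29 to 311 in iPSC than Stage2. For the regions named for the largest called changes, 46 values under other settings lost the call with the same direction, 196 kept it, and none changed direction. Among all 58 named and tested members, library totals turned the direction of 2 called higher in Stage2 than MEF and of 6 called higher in iPSC than MEF. The planned motif search in windows of equal length around every region was not run, since no genome was used here. Where no cause is stated above, the cause was not tested.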
